A study of Mus musculus with 12 samples.

Results

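Klf6, Tbx2, Tbx4 and Lhx2 are 4 genes for sequence-specific transcription factors, taken by their symbols from the 27942 genes analysed in C2C12. This established line of mouse myoblasts forms multinucleated myotubes in low serum. The cells reached 80% density in 10% fetal bovine serum. Differentiation was then induced for 7 days with 2% horse serum, in untreated cells (control, 3 libraries) or in cells given 25 µmol/L 4-octyl itaconate (OI, 3 libraries), a cell-permeable itaconate derivative known to activate the transcription factor NRF2. All groups are the same cell line, with no genotype difference stated, and a second set of 3 control and 3 OI samples was not analysed here. The labels do not say whether replicates were separate cultures, so p-values reflect only how these libraries vary, possibly for technical reasons.

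The factors belong to 3 DNA-binding families. Klf6 is a Krüppel-like factor whose C-terminal zinc fingers bind GC-rich and CACCC sequences. It is an early-response gene, and in myoblasts it has been described as responsive to TGF-beta and to MEF2 factors. Tbx2 and Tbx4 are T-box factors. Tbx2 acts mainly as a repressor and is known for repressing the cell cycle inhibitor gene Cdkn1a, and Tbx4 is known for hindlimb and lung development. Lhx2 is a LIM-homeodomain factor of the developing eye, forebrain, limb and hair follicle. Tbx2 and Tbx4 form a conserved gene pair.

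Of the 4 genes, Klf6 was well expressed in every library and the other three were close to the limit of detection. Klf6 averaged 23.3 FPKM over the 6 libraries (fragment counts divided by exonic length and by the mapped total), Tbx4 0.183 FPKM, Lhx2 0.102 FPKM and Tbx2 0.0774 FPKM. Klf6, the only member that met the filter for the limma test between OI and control, did not pass it. The permutation test used for Tbx2, Tbx4 and Lhx2 has a smallest p of 0.1, so it could not pass at 0.05. No member passed a limma voom fit on recovered reads, added after seeing the data. For Tbx2, the OI libraries were all below the control libraries, at a level of 5 to 13 reads per library. Groups separated in this direction for 11.9% of the 4143 genes that reached 5 reads in 3 libraries.

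The annotated places are those of the mouse build mm10 (GRCm38), all on the plus strand. Klf6 (ENSMUSG00000000078) lies on chromosome 13, from 5861482 to 5870394, and has 4391 exonic bases. Tbx2 (ENSMUSG00000000093) lies on chromosome 11, from 85832551 to 85841948, with 3626 exonic bases. Tbx4 (ENSMUSG00000000094) follows it on the same strand, from 85886422 to 85916097, with 3401 exonic bases, and 44474 bases separate the end of Tbx2 from the start of Tbx4. Lhx2 (ENSMUSG00000000247) lies on chromosome 2, from 38339281 to 38369733, with 4393 exonic bases. All 4 are protein-coding. No exonic base of any of them is shared with another gene of GENCODE release M21 on either strand, although the antisense genes Gm27197 and Gm13584 lie within Lhx2.

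The sequences before the start sites of Klf6, Tbx4 and Lhx2 are shown because OI is known to act through NRF2, whose binding core was among the motifs searched, and because these genes differ widely in level. They are RefSeq sequences of GRCm38.p6, 250 bases each, 5′ to 3′ on the plus strand. Capitals mark matches, on either strand, to the GC box GGGCGGG, the CACCC box, the T-box core GGTGTGA, the LIM-homeodomain core TAATTA, the antioxidant response element core TGACNNNGC bound by NRF2, the E-box CAGCTG of MyoD-family factors, and the TATA box TATAAA.
Klf6, chr13:5861239-5861488: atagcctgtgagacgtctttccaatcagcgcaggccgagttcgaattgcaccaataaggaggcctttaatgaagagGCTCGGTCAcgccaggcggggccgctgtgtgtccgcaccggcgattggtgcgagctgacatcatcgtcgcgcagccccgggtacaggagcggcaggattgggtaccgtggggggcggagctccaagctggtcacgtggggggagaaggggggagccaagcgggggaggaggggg
Tbx4, chr11:85896515-85896764: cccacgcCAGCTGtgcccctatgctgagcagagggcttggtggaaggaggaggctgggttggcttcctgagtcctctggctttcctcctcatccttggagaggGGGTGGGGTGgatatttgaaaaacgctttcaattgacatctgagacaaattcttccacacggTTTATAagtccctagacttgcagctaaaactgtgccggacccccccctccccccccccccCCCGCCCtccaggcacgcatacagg
Lhx2, chr2:38339031-38339280: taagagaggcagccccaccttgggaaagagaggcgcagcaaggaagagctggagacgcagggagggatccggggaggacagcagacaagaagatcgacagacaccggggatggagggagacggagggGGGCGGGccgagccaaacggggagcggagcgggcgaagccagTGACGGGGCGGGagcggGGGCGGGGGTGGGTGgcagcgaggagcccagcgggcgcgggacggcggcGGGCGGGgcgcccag
The Klf6 window held 1 match, to the antioxidant response element core, 174 bases before the start, which 10.2% of the 32851 windows of this length also hold. It held none to the GC box (23.4% of windows), the CACCC box (52.0%), the T-box core (3.33%), TAATTA (4.84%), CAGCTG (13.0%) or TATAAA (12.4%). The Tbx4 window held 1 TATA box, 1 CAGCTG, 1 GC box and 2 CACCC boxes that adjoin without sharing a base. The Lhx2 window held 4 GC boxes, 2 CACCC boxes and 1 antioxidant response element core. That core shares bases with a GC box, and the CACCC boxes share a base with each other, and 1 of them shares a base with another GC box. These matches are a description of letters, not sites of binding. The Lhx2 and Klf6 windows were rich in G and C, at 72.8% and 64.8%, against 58.4% for Tbx4 and a median of 52.4% over all windows. A second Lhx2 start, at 38351308, had none of the motifs. The start used for Tbx4 lies 10343 bases after the gene's annotated start.

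FPKM values could be turned back into reads, which sets the precision of each level. With exonic length taken as the union of a gene's annotated exons, between 98.3% and 98.5% of the values above 0 in each library were whole reads within 0.01, or within the rounding of the deposited digits for large values. Library sizes ran from 24441000 to 36274000 reads (or read pairs, since FPKM cannot distinguish them). Control replicate 1 stood apart from the other libraries. In it, 4 abundant non-coding RNAs (Malat1, AY036118, Gm42418 and CT010467.1) took 19.5% of the reads, against 0.434% to 0.993% elsewhere. Of the skeletal muscle markers, Tnnc1 and H19 were analysed here, at 126 and 133 FPKM in control and 23.2 and 27.4 FPKM in OI (both lower by limma, adjusted p = 0.000188 and 0.00023, n = 3 each). The other 18 markers, Myod1 and Myog among them, and those of osteoblasts, adipocytes and fibroblasts were not analysed here.

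Control replicates 1 to 3 held Klf6 at 19.7, 24.3 and 22.2 FPKM, and OI replicates 1 to 3 held it at 23.8, 25.8 and 23.9 FPKM. These values rest on 2118, 3263 and 2920 reads in control and 3353, 4115 and 2700 reads in OI. The groups overlapped, since control replicate 2 was above 2 of the OI libraries, and the lowest library was control replicate 1. Control averaged 22.1 ± 2.31 FPKM and OI 24.5 ± 1.15 FPKM (SD, n = 3 each). In bulk RNA, fewer cells with a transcript and less RNA per cell cannot be told apart. Counting error was 1.56% to 2.17% of the reads in each library, smaller than the spread between replicates of 10.4% in control and 4.67% in OI. The log2 fold change on the log2(FPKM + 1) scale was 0.15 ± 0.09 (SE), with a 95% interval of -0.08 to 0.38 (limma adjusted p = 0.469). As a percentage the interval runs from -5.31% to 29.7%. Over all 1737 genes tested, 48 passed limma at an adjusted p of 0.05 (2.76%), 20 higher and 28 lower in OI, and Klf6, the only member that could be tested, did not.

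The size of the Klf6 difference depended on single control libraries, replicate 1 among them. Where library sizes were recounted without the reads of the 4 abundant RNAs, the Klf6 levels became 24.5, 24.5 and 22.3 FPKM for control replicates 1 to 3, with 24.0, 26.0 and 24.2 FPKM for OI. The log2 fold change was then 0.05 (limma adjusted p = 0.843). Without control replicate 1 it was 0.07 (limma adjusted p = 0.758). It was 0.22 without control replicate 2 (limma adjusted p = 0.371). With that recount, 27 genes passed limma, 6 higher and 21 lower. The recount multiplied every gene's value in control replicate 1 by 1.24. It moved the median log2 fold change over all tested genes from -0.02 to -0.10, so the shift was not particular to Klf6. Median-of-ratios scaling over the tested genes gave 0.17 (limma adjusted p = 0.424). On recovered reads the log2 fold change was 0.15 (limma voom adjusted p = 0.457), where 1.99% of 3117 genes passed.

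**Figure D1:**
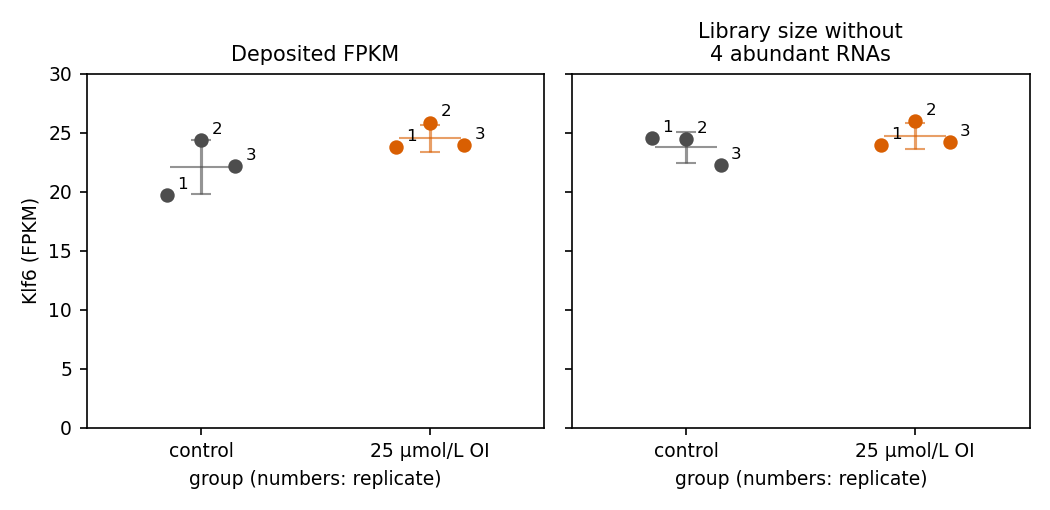
Klf6 level in FPKM (vertical axis, from 0) in the 3 control and 3 OI libraries, as deposited (left) and with library size recounted without the 4 abundant RNAs (right). Points are libraries, labelled by replicate, and bars are the mean ± SD. The groups overlap in both panels, and control replicate 1 moves from 19.7 to 24.5 FPKM.

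**Figure D2:**
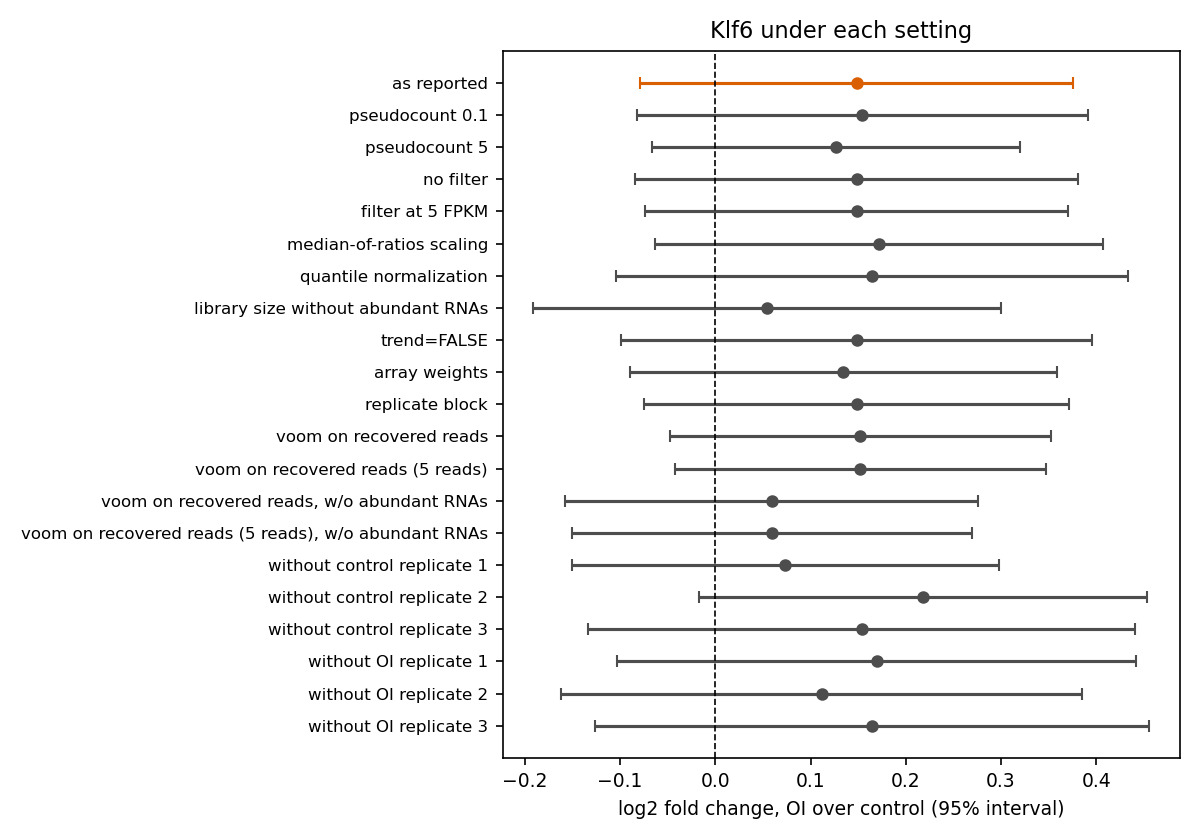
Klf6 log2 fold change, OI over control (horizontal axis), with its 95% interval, as reported (top, orange) and under each alternative, where voom values are on the scale of log2 RPM, the reads of a gene scaled to a common library size. All estimates lie between 0.05 and 0.22, and every interval includes 0.

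Tbx2 had 9, 10 and 13 reads in control replicates 1 to 3 and 5, 6 and 6 reads in OI replicates 1 to 3. As FPKM these were 0.102, 0.0904 and 0.120 in control and 0.0429, 0.0456 and 0.0644 in OI. All 3 OI libraries were below all 3 control libraries. Control averaged 0.104 ± 0.0147 FPKM, against 0.0510 ± 0.0117 FPKM for OI (SD, n = 3 each), a ratio of 0.491. Over the pooled libraries, 32 reads in control against 17 in OI gave a ratio of RPM (reads scaled to library size) of 0.480, with an exact 95% interval of 0.25 to 0.890 that covers counting error only. Groups separated in this direction for 11.9% of the 4143 genes that reached 5 reads in 3 libraries. Tbx2 missed the filter of 1 FPKM in 3 libraries. An exact two-sided permutation test of its log2(FPKM + 1) values gave p = 0.1, the smallest p that 3 against 3 allows. A limma voom fit on the recovered reads of the 4143 genes was added after seeing the data. It gave a log2 fold change of -1.03 ± 0.42 (SE, limma voom adjusted p = 0.390), where 1.45% of genes passed. None of the 4 members passed that fit, and Tbx2 was the 1 member under an unadjusted p of 0.05, as were 12% of the 4143 genes. With library sizes recounted without the abundant RNAs, the pooled ratio was 0.454.

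Tbx4, the neighbour of Tbx2, had 14, 11 and 21 reads in control and 14, 35 and 18 reads in OI. Its levels were 0.168, 0.106 and 0.206 FPKM in control and 0.128, 0.284 and 0.206 FPKM in OI. OI replicate 2 was the highest library and control replicate 2 the lowest, and the groups overlapped. Control averaged 0.160 ± 0.0505 FPKM, against 0.206 ± 0.0778 FPKM for OI (SD, n = 3 each; exact two-sided permutation p = 0.4). The pooled ratio of OI to control was 1.32, with an exact 95% interval of 0.890 to 1.96 for counting error. Without OI replicate 2 the means were 0.160 and 0.167 FPKM. In the planned limma voom fit, of genes with 10 or more reads in 3 libraries, the log2 fold change was 0.36 ± 0.42 (SE). Its 95% interval was -0.63 to 1.35 (limma voom adjusted p = 0.733).

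Lhx2 had 0, 12 and 22 reads in control and 10, 20 and 18 reads in OI. Its levels were 0, 0.0895 and 0.167 FPKM in control and 0.0709, 0.126 and 0.160 FPKM in OI. The highest value, in control replicate 3, was above all OI values, and the groups overlapped. The 0 reads in control replicate 1 allow up to 0.123 RPM by a limit of 3 reads, or 0.151 RPM by a 95% Poisson interval. The 12 reads in control replicate 2 have a 95% Poisson interval of 0.203 to 0.687 RPM. Control averaged 0.0855 ± 0.0836 FPKM, against 0.119 ± 0.0447 FPKM for OI (SD, n = 3 each; exact two-sided permutation p = 0.7). The pooled ratio was 1.27, with an exact 95% interval of 0.805 to 2.04 for counting error. Without control replicate 1, the control mean was 0.128 FPKM and lay above that of OI. Without control replicate 3, the ratio of OI to control means was 2.65, against 1.39 with all libraries. In the limma voom fit at 10 reads in 3 libraries, the log2 fold change was 1.14 ± 1.07 (SE). Its 95% interval was -1.39 to 3.67 (limma voom adjusted p = 0.669). The part of the 0 reads of control replicate 1 in this value was not tested.

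**Figure D3:**
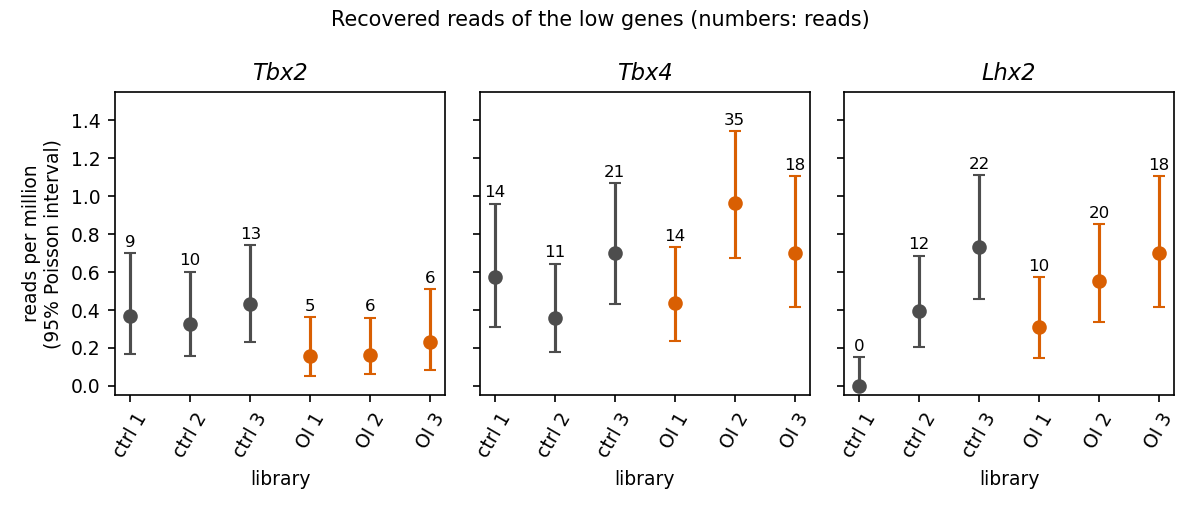
RPM (vertical axis) of Tbx2, Tbx4 and Lhx2 in each library, with exact 95% Poisson intervals for counting error and the number of reads above each. The 3 OI libraries are below the 3 control libraries for Tbx2, with 5 to 6 against 9 to 13 reads, and the groups overlap for Tbx4 and Lhx2.

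In level per exonic length, Klf6 was 127-fold above Tbx4, 228-fold above Lhx2 and 301-fold above Tbx2 in the mean FPKM of all 6 libraries. The ranges over libraries separated Klf6 (19.7 to 25.8 FPKM) from Tbx4 (0.106 to 0.284 FPKM). Those of Tbx4, Lhx2 (0 to 0.167 FPKM) and Tbx2 (0.0429 to 0.120 FPKM) overlapped. Tbx2 was below Tbx4 in each of the 6 libraries, although the highest Tbx2 value, 0.120 FPKM in control replicate 3, was above the lowest Tbx4 value, 0.106 FPKM in control replicate 2. Klf6 ranked 45 of 2468 protein-coding genes analysed, Tbx4 483, Lhx2 549 and Tbx2 582. Of those 2468 genes, 1490 were at 0 in all 6 libraries, so the 3 low members were above the majority while still under 1 FPKM.

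The genes analysed here that lie within 100 kb of a member also had few reads. Tbx2 has a head-to-head neighbour, 2610027K06Rik, a processed transcript on the minus strand whose start lies 328 bases from that of Tbx2. It had 6, 14 and 7 reads in control and 7, 8 and 3 reads in OI. Scaled to library size these were 0.0954, 0.178 and 0.0907 FPKM in control and 0.0847, 0.0857 and 0.0454 FPKM in OI. All 3 OI libraries were below all 3 control libraries, as for Tbx2 and for 11.9% of the 4143 genes that reached 5 reads in 3 libraries. The nearest libraries of the groups were at 0.0857 and 0.0907 FPKM, from 8 and 7 reads. Near Klf6, 1700016G22Rik and Gm46401 were at 0 in all libraries and Gm47507 had 1 read in OI replicate 1. The antisense genes Gm27197 and Gm13584 within Lhx2 were at 0 in all libraries, and Gm13556, 51990 bases away, had 5 reads in control and 7 in OI. None of these neighbours passed the filter for the test.

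Among the families and pathways of the members, few other genes could be described. Of 27 KLF and SP genes, Klf6 was analysed here, and of 18 T-box genes, Tbx2 and Tbx4. Of 22 LIM-homeobox, LIM-only and cofactor genes, Lhx2 and Lhx8 were, and Lhx8 was at 0 in all libraries. Of 20 limb patterning genes, Tbx2, Tbx4 and Lhx2 were analysed here. Of 10 genes described as TBX2 targets, Cdh1 (E-cadherin, repressed by TBX2 in human cells) was analysed here, with 2 reads in control replicate 2 and 0 in the other libraries. The 12 described targets of KLF6 and the 18 myogenic transcription factors were not analysed here.

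A wider group of 55 protein-coding genes whose symbols name a transcription factor family, 33 of them Zfp zinc finger genes, gave a background for Klf6. Of these, 27 were tested, 23 of them Zfp genes, with Klf6, Atf7, Tfe3 and Foxl1 as the others, and Klf6 had the highest mean level of the 55. None passed limma at an adjusted p of 0.05, against 2.76% of all genes. At an unadjusted p of 0.05, 2 did (7.41%, against 17.8% of all genes tested). The limma voom fit at 10 reads in 3 libraries took 34 of the 55 and none passed after adjustment. The median log2 fold change was 0.02, with 18 higher and 9 lower, beside a median of -0.02 over all genes tested. The groups did not overlap for 4 of the 27 (14.8%, against 23.6% of all genes tested), namely Tfe3, Zfp87 and Zfp955a, with log2 fold changes of 0.20, 0.20 and 0.13, and Zfp748, with -0.13. By the size of the log2 fold change Klf6 was number 6 of the 27.

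**Figure D4:**
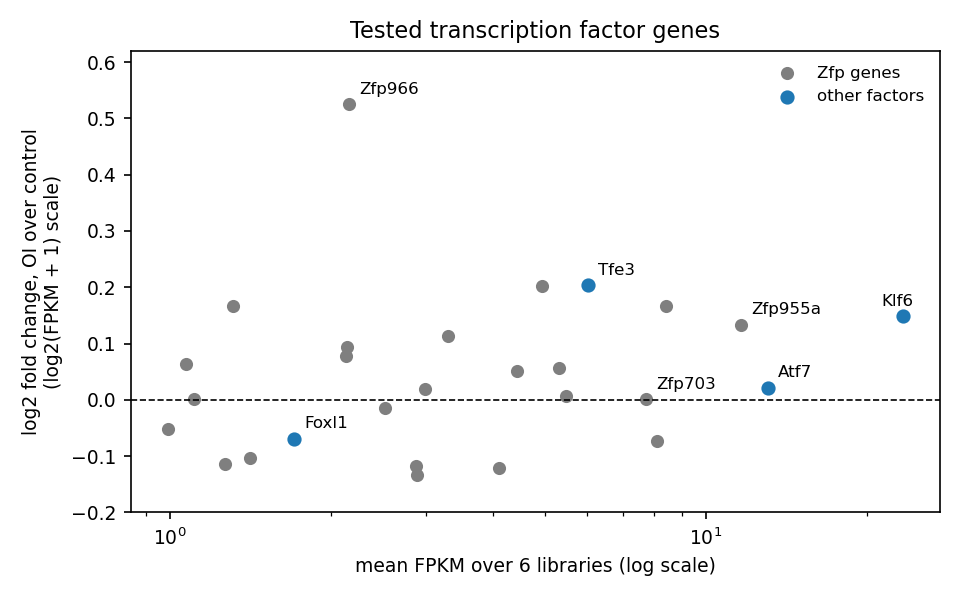
Log2 fold change, OI over control, on the log2(FPKM + 1) scale (vertical axis) against mean FPKM over the 6 libraries (horizontal log axis) for the 27 tested transcription factor genes. Points are genes, grey for Zfp genes and blue for the others. Klf6 has the highest level, and genes other than Zfp966 lie between -0.13 and 0.20. Zfp966 is at 0.52 (limma adjusted p = 0.613), with 0.137 FPKM in control replicate 1.

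The genes whose levels most resembled those of Klf6 were sought by Pearson r of log2(FPKM + 1) over the 6 libraries, among 225 tested protein-coding genes that are not predicted models. They were Gna12, a G protein alpha subunit (r = 0.978, Spearman rho = 1.00), Shprh, an E3 ubiquitin ligase of DNA damage tolerance (r = 0.934, rho = 0.829), and Zfp955a, a zinc finger gene (r = 0.929, rho = 0.829). Of the 225, 6 had r above 0.9. Gna12 was at 14.6, 16.7 and 15.3 FPKM in control and 16.4, 17.9 and 16.7 FPKM in OI. For all 3 genes, as for Klf6, control replicate 1 was the lowest library and OI replicate 2 the highest. The points share library size and normalization, and the part of control replicate 1 in this likeness was not tested.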

How the data were processed

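RNA of 3 control and 3 OI libraries was analysed. Per the labels' protocols, RNAiso Plus gave total RNA, and a TruSeq RNA kit the libraries. StringTie 1.3.3b, HISAT2 2.1.0, cutadapt 2.7 and build mm10 are named in the submitters' processing notes. The authors deposited FPKM values, 1 table per library, with the same 27943 rows, of which 1 was broken and left out. Strand handling is not stated.

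Members were found by symbol. The members and gene lists were chosen with earlier results of these data known. Named genes were the 4 members, list members past the threshold (up to 3 a list), genes within 100 kb, transcription factor genes past the threshold, and the 3 genes most like each tested member. Other transcription factor genes named were chosen after their values were seen, as were Lhx8, Cdh1, Tnnc1 and H19 as the only list members analysed.

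Genes with 1 FPKM or more in at least 3 libraries were tested with limma 3.58.1 (R 4.3.3) on log2(FPKM + 1), trend=TRUE, two-sided, Benjamini-Hochberg adjusted over 1737 genes. This scale understates changes of low genes, so Tbx2, Tbx4 and Lhx2 were also described by reads. As they missed the filter, they were tested by exact permutation, on the same scale. Library size came from the FPKM steps of 1-exon genes. Read numbers were FPKM times union exonic length (GENCODE M21) times library size, and those of the members lay within 0.0311 of a whole number. Poisson and Clopper-Pearson intervals (95%) and the limit of 3 reads cover counting error only. The fit was tested on simulated data, and the criterion for passing was loosened after the first run fell short of it by 1 gene. Figures were drawn with Matplotlib 3.10.9 in Python 3.11.15.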

Additional observations from a re-analysis of the deposited data

How the results depend on the processing

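Klf6 missed the limma threshold under all 20 alternatives, 3 of them added after seeing the data, with log2 fold changes from 0.05 to 0.22 and adjusted p from 0.351 to 0.845. Tbx2 kept its direction under all 14 alternatives, with values from -1.10 to -0.02 as the scale changed. Its groups did not overlap, so leaving out a library or changing the pseudocount could not reverse it. Tbx4 kept its direction under all 16, with values from 0.01 to 0.36. Neither passed a test, but the permutation test, with a smallest p of 0.1, could not pass at 0.05. Lhx2 changed direction without control replicate 1, to -0.012, and leaving out each library gave -0.012 to 0.099. The cause was not tested. The count of 48 genes past limma fell to 14 with no filter, where 10948 genes were tested, and to 27 with library sizes recounted without the abundant RNAs. Leaving out each library gave 15 to 24, with fewer samples. With voom on recovered reads the count was 62 at 10 reads and 60 at 5 reads, the latter added after seeing the data. At 5 reads with recounted library sizes, also added after seeing the data, it was 29, with 6 higher and 23 lower. With the replicate number as a block it was 17, with 3 higher and 14 lower, and the block gave no member a call. Same-numbered control and OI libraries correlated in their deviations from the group means at 0.05, 0.14 and -0.08. Differently numbered ones ranged from -0.14 to 0.08. Whether the numbers pair the samples is not stated, and so few values cannot decide it. For Tbx2, Tbx4 and Lhx2 no value was computed for trend=FALSE, array weights, quantile normalization and the 5 FPKM filter, and Tbx2 missed the voom filter of 10 reads. Depth limits those 3 genes, with counting errors of 16.9% to 44.7% per library above 0 reads, and the second sample set was not analysed here.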
